A study of Mus musculus with 18 samples.

Results

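Among 19518 mouse genes, 10 that mark injured or stressed tubule cells of the kidney were followed through 18 kidney libraries: Havcr1, Lcn2, Spp1, Clu, Krt8, Krt18, Vim, Sox9, Cdkn1a and Cd44. They were taken by gene symbol from the deposited table, and all 10 had an entry. All mice carried the strain label ICR and the age label 10 weeks, and each group had 3 libraries of total RNA from kidney. The HFD+AOS-FMT group is labelled high fat diet with an FMT tied to AOS at 10 mg/kg, and the HFD+control-FMT group high fat diet with a control FMT. The HFD+AOS group is labelled high fat diet with AOS at 10 mg/kg, the HFD group high fat diet alone, the AOS group AOS at 10 mg/kg without that diet, and the control group carries the label control only. FMT is the usual abbreviation for faecal microbiota transplantation, and the labels do not spell out AOS. They also do not give the sex, the length of feeding, the source of the transplants or the time of day at collection, or say whether replicates came from separate animals, so p-values measure the spread between these libraries. The series' title and design text ask whether the transplant changes the kidney under the diet.

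Healthy tubule cells hold little of most of these transcripts. After ischaemia, toxins or obstruction the proximal tubule loses transporters and turns on Havcr1, which encodes the kidney injury molecule KIM-1, while the distal nephron turns on Lcn2, which encodes the secreted lipocalin NGAL. Spp1 encodes the matrix and urinary phosphoprotein osteopontin, and Clu the secreted chaperone clusterin. Krt8 and Krt18 encode keratins that pair in 1 filament of simple epithelia, and Vim encodes vimentin, the filament protein of mesenchymal and regenerating cells. Sox9 is a transcription factor of tubule repair, Cdkn1a encodes the cell cycle inhibitor p21, and Cd44 is a receptor for hyaluronan that also binds osteopontin. In whole kidney RNA, fewer cells of a type and less RNA per cell cannot be told apart.

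One library stood apart before any comparison. Control replicate 3 correlated with the other libraries at 0.948 to 0.963 (Pearson, log scale), against 0.979 to 0.993 among the other 17. Its adrenal gland list (11 genes) summed to 926 units of the authors' normalized signal, against 0.81 to 2.37 in the other libraries. Its proximal tubule list (10 genes) summed to 3435, below the 4523 to 5953 of the others. Slc34a1 is the largest part of that sum, at 1762 against 2189 to 3261. The list did not fall as a whole: Slc5a12, 1 of the 10, was highest there, where 49.7% of all tested genes were. Slc5a12 was at 225.8 against at most 184.1. Control replicate 3 also had the lowest estimate of depth relative to the median library, 0.857, next to 0.914 in control replicate 1 and 0.971 to 1 elsewhere. That estimate is coarse and rests on 12 genes in control replicate 3. A second split was that 4 sperm chromatin genes (Prm1, Prm2, Tnp1 and Tnp2) summed to 24.8 to 37.1 in all 3 control libraries and HFD replicates 1 and 2, against 0 to 0.3 in the other 13. Levels are this normalized signal, which behaves as normalized for length and depth and has no stated unit. Fits were made with control replicate 3 (18 libraries) and without it (17 libraries). Differences between groups other than control have the same size in both fits, with a wider error in 18 libraries for the members.

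In the 17 libraries the members spanned over 3 orders of magnitude of normalized signal. Spp1 was highest with a median of 227, followed by Clu at 98.7 and Krt8 at 69.8. These 3 exceeded 97.8%, 95.2% and 93.6% of the genes in the table. Vim had a median of 17.6, Krt18 of 8.09, Cdkn1a of 4.78, Lcn2 of 2.72 and Havcr1 of 2.32. Cd44 at 0.58 and Sox9 at 0.12 were low, and they did not reach a signal of 1 in 3 libraries, so they were not tested. The other 8 members are among the 12030 genes that passed this minimum.

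**Figure D1:**
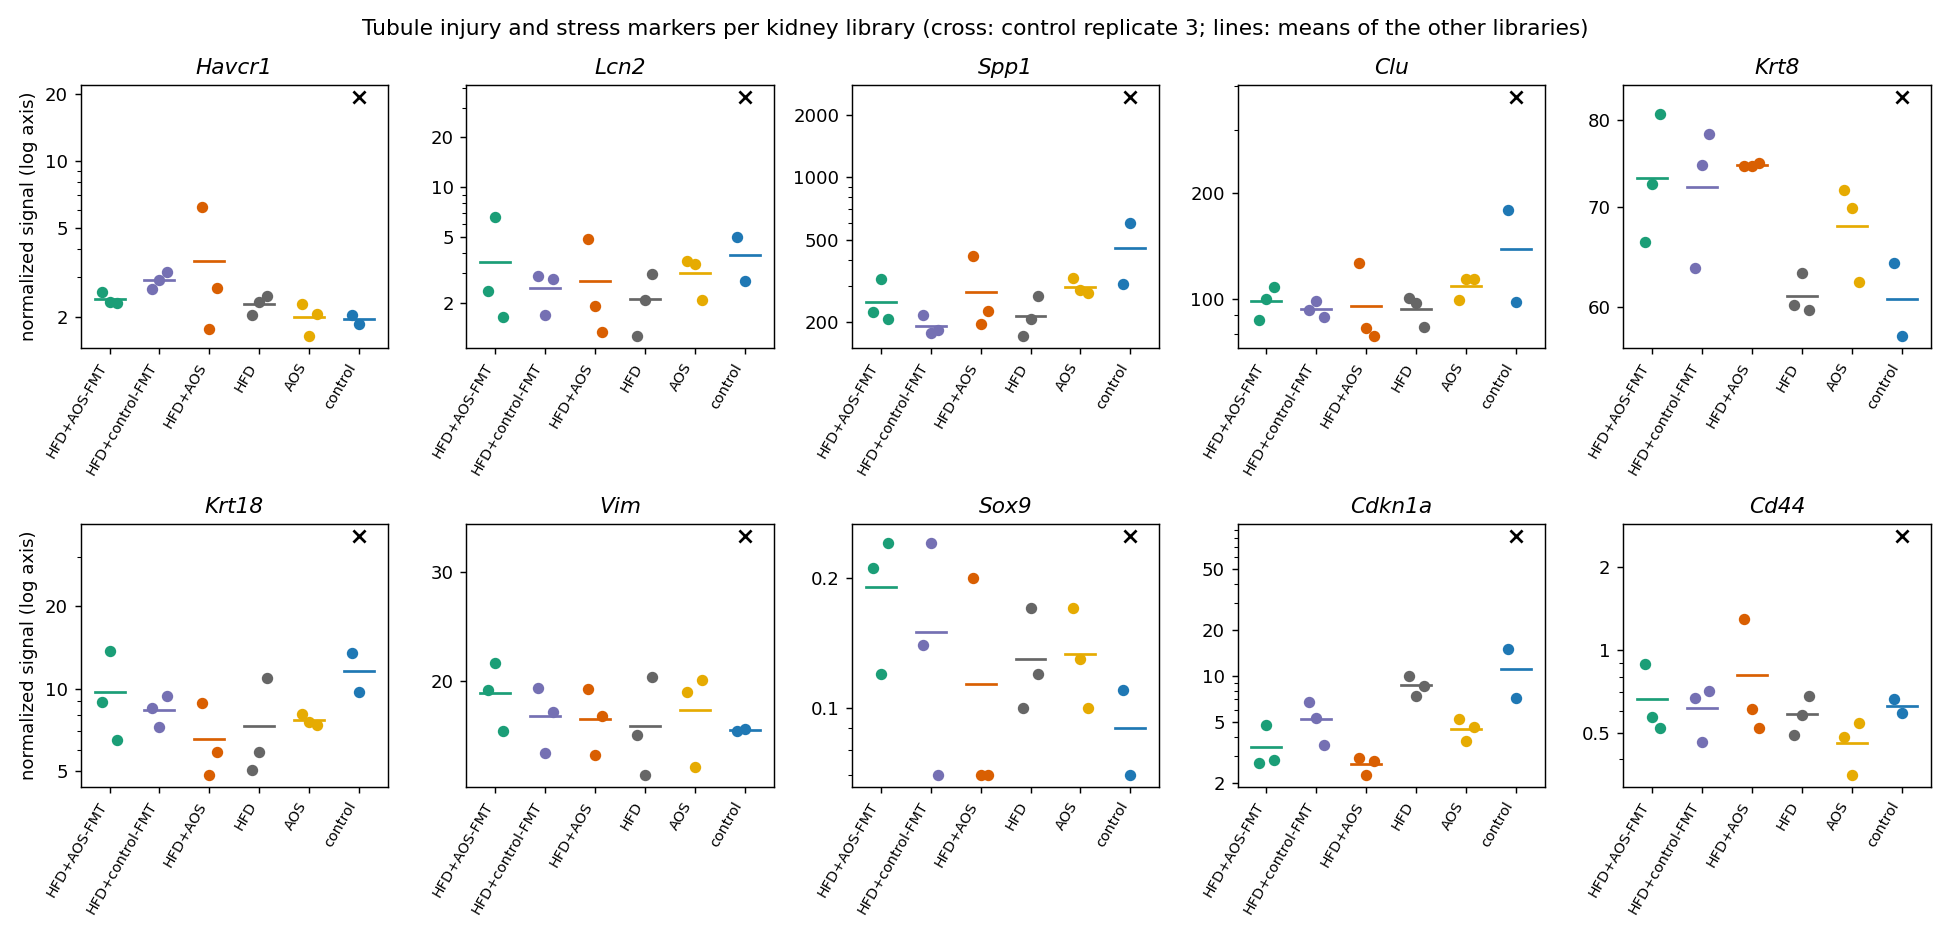
Normalized signal (log axes, 1 panel per gene) of the 10 markers in the 6 groups. Points are libraries, lines are means of the libraries other than control replicate 3, and the cross is control replicate 3. The cross is the highest point for all 10 genes, and the lowest Cdkn1a value, 2.24, is in HFD+AOS.

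The highest values of the injury markers in the series were in a library labelled control. Control replicate 3 had the highest signal of all 18 libraries for each of the 10 genes. Among the 8 tested members 8 were highest there, where 49.7% of all tested genes were. Of the 8, 6 were at least 2 times the highest of the other 17 libraries, where 2.98% of all genes were. Cdkn1a, Lcn2, Spp1 and Havcr1, 4 of the 8, were at least 3 times that value, where 0.765% of all genes were.

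Cdkn1a was at 82.6 in control replicate 3 and at 2.24 to 14.9 in the other libraries, 5.54 times the highest of them. Lcn2 was at 35.1 against 1.25 to 6.61, and Spp1 at 2434 against 171 to 604. Havcr1 was at 19.4 against 1.63 to 6.23. These ranges do not touch the value of control replicate 3. Krt18 was 2.64 times, Clu 2.08 times, Cd44 2.01 times and Vim 1.60 times the highest of the other libraries. Krt8 and Sox9 were barely higher there, with 83.0 against at most 80.8 for Krt8 and 0.25 against at most 0.24 for Sox9. The proportion of the keratin pair differed, with 2.31 units of Krt8 per unit of Krt18 in control replicate 3 and 4.75 to 15.4 (median 8.48) in the other libraries.

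**Figure D2:**
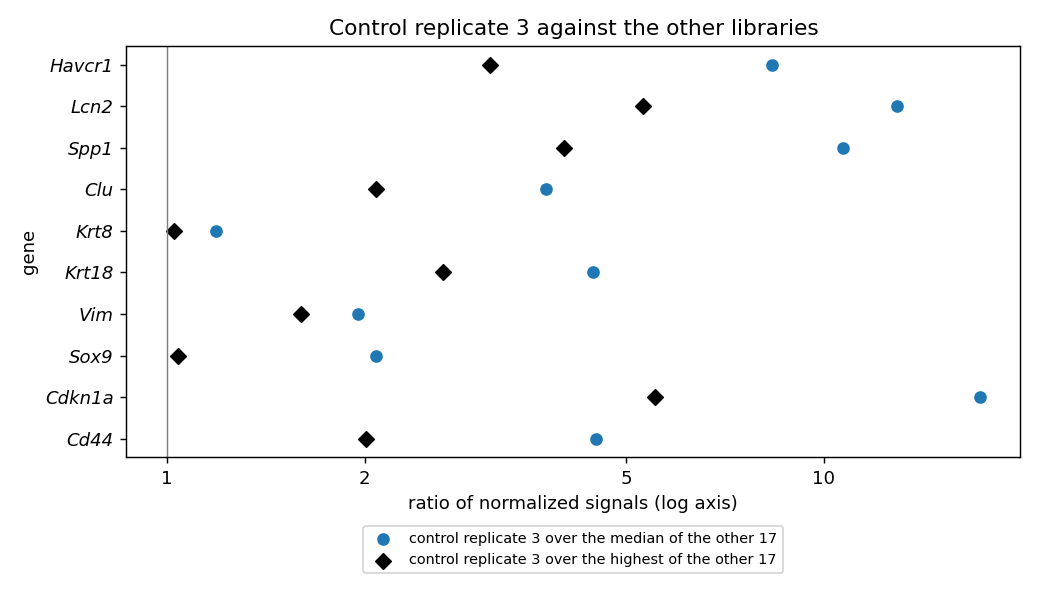
Ratio of the normalized signal of control replicate 3 to the median (circles) and to the highest (diamonds) of the other 17 libraries, for each marker (log axis). Cdkn1a, Lcn2, Spp1 and Havcr1 lie at ratios of 3.11 to 5.54 to the highest, while Krt8 lies at 1.03.

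Wider lists were also high in that library. Of 24 further genes of injured or incompletely repaired tubule (21 passed the minimum) 20 were highest in control replicate 3, where 49.7% of all tested genes were. The sum of the 24 was 862 against 307 to 434. Complement C3, which injured tubule also makes, was at 110.1 against 7.29 to 29.1. Of 18 genes of the p53 response and cell cycle arrest (15 passed the minimum) 14 were highest there, beside the same 49.7%, with a sum of 548 against 188 to 242. Bax, a death effector and p53 target, was at 80.1 against 33.5 to 48.6, and the nuclease gene Aen at 25.4 against 9.08 to 17.8.

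Lists of other tissues and cell types were also measured in that library, where 49.7% of all tested genes were highest. All 11 adrenal genes were highest in control replicate 3, but only 1 of them, Star, passed the minimum and counts among the tested genes. Star, the cholesterol carrier of steroid-making cells, was at 125 against at most 1.08. Collecting duct genes summed to 416 against 124 to 259.6 (6 of 8 highest there) and podocyte genes to 105.5 against 29.2 to 70.1 (6 of 6). Myeloid genes summed to 191 against 66.7 to 128 (6 of 10 highest there, with 9 passing the minimum). Endothelial and stromal genes summed to 229.5 against 87.2 to 137 (5 of 8), and loop and distal tubule genes to 2283 against 1101 to 2152 (5 of 7). The sums of the lymphoid, urothelium and fat lists lay inside the range of the other libraries. The macrophage gene Adgre1 was at 2.13 against at most 1.77, whereas the neutrophil gene S100a8 was at 0.72, inside the range of 0.6 to 3.01. The part of these tissues in the marker values was not tested.

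The 4 members at 3 times or more in control replicate 3 are shown with the 300 bases around a RefSeq start of each (GRCm38.p6). Over the other 17 libraries r among these 4 lay between -0.27 (Havcr1 and Cdkn1a) and 0.60 (Lcn2 and Spp1). Of 8 motifs looked for on both strands, capitals mark those found in each window. The p53 core pair, CATG, any 6 bases and CATG again, was chosen after this sequence had been seen, and it is in 0.712% of 32851 promoters of the same length. The NF-kB letters, GGG, any 5 bases and CC, are in 50.8% of those promoters. The AP-1 letters TGANTCA occurred in 7.81% of the same promoters. The half-site of nuclear receptors, AGGTCA, occurred in 16.3% of them. The letters of the TATA box, TATAAA, occurred in 13.6% of them. The windows are chr17:29090729-29091028 (plus strand) for Cdkn1a, chr2:32387690-32387989 (minus strand) for Lcn2, chr11:46750918-46751217 (plus strand) for Havcr1 and chr5:104434861-104435160 (plus strand) for Spp1.
Cdkn1a: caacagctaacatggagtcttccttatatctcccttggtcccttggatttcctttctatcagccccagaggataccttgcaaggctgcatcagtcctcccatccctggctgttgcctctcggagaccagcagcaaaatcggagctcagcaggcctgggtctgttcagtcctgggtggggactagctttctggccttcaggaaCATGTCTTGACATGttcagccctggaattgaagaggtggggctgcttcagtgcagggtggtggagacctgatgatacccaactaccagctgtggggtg
Lcn2: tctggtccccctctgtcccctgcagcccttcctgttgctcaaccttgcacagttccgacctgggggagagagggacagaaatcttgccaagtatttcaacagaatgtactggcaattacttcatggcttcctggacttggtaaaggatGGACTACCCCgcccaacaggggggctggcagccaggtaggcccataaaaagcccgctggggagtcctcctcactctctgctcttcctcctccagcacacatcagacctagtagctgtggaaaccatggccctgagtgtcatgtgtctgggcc
Havcr1: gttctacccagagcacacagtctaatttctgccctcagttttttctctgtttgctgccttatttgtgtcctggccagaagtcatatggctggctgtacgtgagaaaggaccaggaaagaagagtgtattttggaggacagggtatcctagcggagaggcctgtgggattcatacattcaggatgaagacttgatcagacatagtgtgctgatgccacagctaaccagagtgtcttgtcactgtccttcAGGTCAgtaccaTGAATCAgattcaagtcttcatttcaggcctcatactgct
Spp1: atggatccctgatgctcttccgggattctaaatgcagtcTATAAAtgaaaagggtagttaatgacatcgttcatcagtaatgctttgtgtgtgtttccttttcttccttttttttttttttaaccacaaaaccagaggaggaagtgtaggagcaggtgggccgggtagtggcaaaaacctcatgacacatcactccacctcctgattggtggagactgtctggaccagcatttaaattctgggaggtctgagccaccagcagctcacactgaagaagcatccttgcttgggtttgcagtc
In Cdkn1a the capitals start at base -48 from the start and in Lcn2 at -102. In Havcr1 the half-site starts at -2 and the AP-1 letters at 10, and in Spp1 the TATA letters start at -211. The E-box CACGTG, the D-box TTANNTAA and the STAT letters TTCNNNGAA were in 0 of the 8 member promoters in the table. These are matches of letters only, and they depend on the start shown. A further Cdkn1a start, also at a principal transcript, had no p53 core pair and 3 NF-kB matches. A further Spp1 start at a principal transcript had no TATA letters.

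Among the other 17 libraries, the highest marker values fell in several libraries of HFD+AOS-FMT, HFD+AOS and control, with Sox9 tied in HFD+control-FMT. HFD+AOS replicate 1 was highest for Havcr1 and Cd44, and HFD+AOS-FMT replicate 2 for Lcn2, Krt18 and Vim. HFD+AOS-FMT replicate 3 was highest for Krt8, control replicate 1 for Clu and Cdkn1a, and control replicate 2 for Spp1. For Sox9, HFD+AOS-FMT replicate 3 and HFD+control-FMT replicate 2 tied at 0.24. HFD+AOS replicate 1 was the highest of the 17 for 9.95% of all tested genes and HFD+AOS-FMT replicate 3 for 6.08%. Control replicate 1 was the highest for 8.31% and control replicate 2 for 5.57%. HFD+AOS-FMT replicate 2 was the highest of the 17 for 21.5% of all tested genes, the largest share of any library. Its collecting duct sum of 259.6, podocyte sum of 70.1, loop and distal tubule sum of 2152 and urothelium sum of 17.9 were also the highest of the 17. The part of these cell types in its Lcn2, Krt18 and Vim values was not tested.

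**Figure D3:**
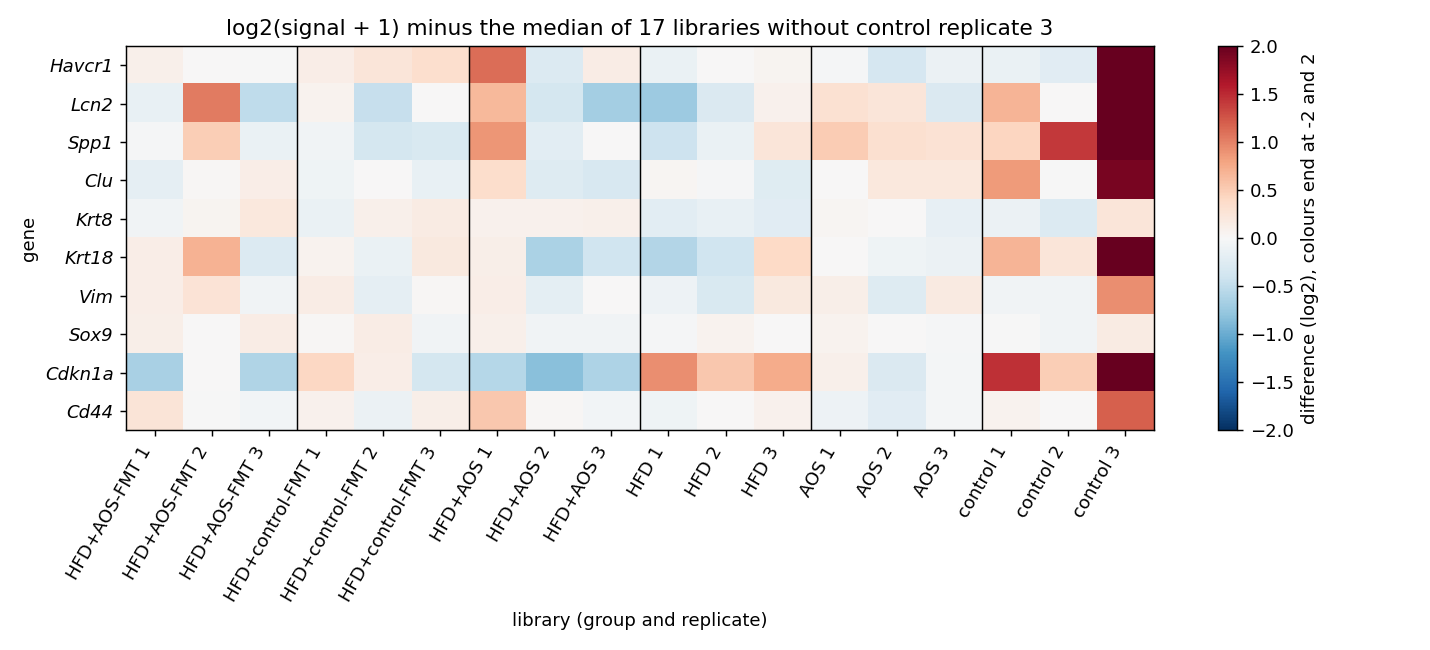
Heat map of log2(signal + 1) minus the median of the 17 libraries without control replicate 3, for 10 markers (rows) and 18 libraries (columns, 3 per group). Red is higher and blue is lower. The column of control replicate 3 is above the median for all markers, and the Cdkn1a row is blue in the 3 HFD+AOS libraries and red in the 3 HFD libraries.

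Havcr1, the proximal tubule injury marker (chr11:46735080-46779578, plus strand, GRCm38), had no call in any comparison. It was at 2.58, 2.33 and 2.29 in HFD+AOS-FMT, 2.65, 2.92 and 3.18 in HFD+control-FMT, 6.23, 1.75 and 2.68 in HFD+AOS and 2.04, 2.32 and 2.46 in HFD. AOS libraries had 2.27, 1.63 and 2.06, and control libraries 2.03, 1.85 and, in replicate 3, 19.4. All 3 HFD+control-FMT values lay above all 3 HFD values and above all 3 HFD+AOS-FMT values. Such separation occurred in 15.5% of genes for the first pair of groups and in 18.1% for the second.

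The log2 difference of Havcr1 was 0.26 ± 0.24 (SE) for HFD+control-FMT against HFD (limma, 17 libraries, adjusted p = 0.818), with an SE of 0.54 in 18 libraries. For HFD+AOS-FMT against HFD+control-FMT it was -0.20 ± 0.24 (adjusted p = 0.746, limma). The difference of HFD+AOS from HFD rests on 1 library. It was 0.36 with all 3 replicates (95% interval -0.15 to 0.86 in 17 libraries and -0.80 to 1.51 in 18 libraries) and -0.04 without replicate 1. In that replicate Ppfibp1 and Sesn2, which are among the genes most like Havcr1 over the 17 libraries, were also at their highest among the 17. Ppfibp1 (r = 0.83), which encodes a liprin binding protein, was at 20.2 there. Sesn2 (r = 0.80), a stress-induced sestrin, was at 18.7. These correlations describe 17 libraries, with that replicate among them.

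Lcn2, the distal nephron marker (chr2:32384633-32388252, minus strand), had groups that overlapped. It was at 2.34, 6.61 and 1.63 in HFD+AOS-FMT, 2.90, 1.69 and 2.76 in HFD+control-FMT, 4.82, 1.91 and 1.33 in HFD+AOS and 1.25, 2.06 and 2.96 in HFD. AOS libraries had 3.57, 3.41 and 2.06, and control libraries 4.99, 2.72 and, in replicate 3, 35.1. Without control replicate 3 the group means of Lcn2 ran from 2.09 ± 0.86 (SD, n = 3) in HFD to 3.86 ± 1.61 (SD, n = 2) in control, and the ranges of all groups next to each other in this order overlapped. Its largest difference from HFD within the diet groups, 0.43 ± 0.41 (SE, log2) in HFD+AOS-FMT, became -0.02 without replicate 2 of that group. The interval with all replicates was -0.46 to 1.32 in 17 libraries and -0.95 to 1.81 in 18 libraries.

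Lcn2 and Krt18 went together, with r = 0.83 over the 17 libraries. The 3 genes most like Lcn2 were Myof (r = 0.88), which encodes the membrane repair protein myoferlin, Btbd11 (r = 0.85) and Golm1 (r = 0.84), which encodes a Golgi membrane protein. Myof was at 2.56 in HFD+AOS-FMT replicate 2, the highest of the 17, and at 9.97 in control replicate 3.

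Spp1, the osteopontin gene (chr5:104435118-104441050, plus strand), was at 224, 321 and 206 in HFD+AOS-FMT, 216, 177 and 184 in HFD+control-FMT, 418, 196 and 227 in HFD+AOS and 171, 206 and 268 in HFD. AOS libraries had 325, 285 and 277, and control libraries 307, 604 and, in replicate 3, 2434. All 3 HFD values were below all 3 control values, a separation seen in 15.7% of genes (23.1% without control replicate 3). The log2 difference of HFD against control was -1.85 ± 0.52 (SE) in 18 libraries (limma, adjusted p = 0.227) and -1.02 ± 0.34 in 17 libraries (adjusted p = 0.541), so it was not called in either. In 17 libraries it was -1.51 without control replicate 1 and -0.53 without control replicate 2.

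Clu, the clusterin gene (chr14:65968483-65981547, plus strand), was at 87.3, 99.9 and 109 in HFD+AOS-FMT, 93.4, 98.7 and 89.3 in HFD+control-FMT, 127, 82.7 and 78.6 in HFD+AOS and 101, 97.6 and 83.5 in HFD. AOS libraries had 99.7, 114 and 114, and control libraries 179, 98.3 and, in replicate 3, 372. Its values in the diet groups overlapped, and the differences from HFD were 0.07 in HFD+AOS-FMT, 0.00 in HFD+control-FMT and 0.00 in HFD+AOS on the log2 scale, each with an SE of 0.20 in 17 libraries. The 2 control libraries left in that fit differed from each other by more than the means of these groups did. In HFD+AOS the difference was -0.21 without replicate 1. Against control, the HFD difference was -0.99 ± 0.32 in 18 libraries (limma, adjusted p = 0.234) and -0.50 ± 0.22 in 17 libraries (adjusted p = 0.715). Without control replicate 2 the fit of 18 libraries called it (-1.45, adjusted p = 0.0199), and in 17 libraries it was -0.07 without control replicate 1 and -0.93 without control replicate 2.

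Krt8, the keratin of the pair with the higher signal, was called higher in 1 comparison. It was at 66.3, 72.6 and 80.8 in HFD+AOS-FMT, 63.7, 74.6 and 78.3 in HFD+control-FMT, 74.6, 74.5 and 74.9 in HFD+AOS and 60.1, 63.2 and 59.7 in HFD. AOS libraries had 71.8, 69.8 and 62.3, and control libraries 64.2, 57.3 and, in replicate 3, 83.0. In all 3 comparisons with HFD, every value of the other diet group was above every HFD value. Separation of either kind occurred in 25.3% of genes for HFD+AOS-FMT, 15.5% for HFD+control-FMT and 28.4% for HFD+AOS, and these comparisons share the HFD libraries.

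In 17 libraries Krt8 was higher in HFD+AOS than in HFD by 0.29 ± 0.083 on the log2 scale (limma, adjusted p = 0.04996), where 4.30% of all genes were called higher. In 18 libraries the same difference had an adjusted p of 0.238. The call lay at the threshold: it was lost on leaving out any of 12 of the 17 libraries (adjusted p from 0.0519 to 0.136), namely every HFD, HFD+AOS and remaining control library, AOS replicates 1 and 2, HFD+AOS-FMT replicate 2 and HFD+control-FMT replicate 2. The corresponding differences were 0.26 for HFD+AOS-FMT (adjusted p = 0.0862) and 0.24 for HFD+control-FMT (adjusted p = 0.416) in limma, and neither passed. The interval of Krt8 for HFD+AOS-FMT against HFD+control-FMT was -0.16 to 0.20.

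Krt18, the partner of Krt8 and its neighbour on chromosome 15 (Krt8 at chr15:101996698-102004482 on the minus strand, Krt18 at chr15:102028180-102032027 on the plus strand, GRCm38), was not called in any comparison. It was at 8.95, 13.7 and 6.50 in HFD+AOS-FMT, 8.50, 7.27 and 9.41 in HFD+control-FMT, 8.87, 4.85 and 5.90 in HFD+AOS and 5.06, 5.88 and 10.9 in HFD. AOS libraries had 8.09, 7.54 and 7.35, and control libraries 13.5, 9.75 and, in replicate 3, 36.0. All AOS values were below all control values, a separation seen in 13.2% of genes (26.2% without control replicate 3). The log2 difference of AOS against control was -1.05 ± 0.38 (SE) in 18 libraries (limma, adjusted p = 0.358) and -0.53 ± 0.31 in 17 libraries (adjusted p = 0.660). For HFD against control it was -1.18 ± 0.38 (adjusted p = 0.234) and -0.66 ± 0.31 (adjusted p = 0.718, limma). The difference of HFD+AOS against HFD was -0.11 on the log2 scale (95% interval -0.70 to 0.49 in 17 libraries and -0.92 to 0.70 in 18 libraries), and the correlation of Krt8 with Krt18 over 17 libraries was -0.16. The genes most like Krt18 were Lcn2, then Krt7 (r = 0.81), a keratin of ducts, and Mmp23 (r = 0.80). The genes most like Krt8 were Tsc22d4 (r = 0.87), Myh14 (r = 0.86), which encodes a non-muscle myosin heavy chain, and Spata24 (r = 0.86).

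Vim was at 19.4, 21.4 and 16.6 in HFD+AOS-FMT, 19.5, 15.3 and 17.8 in HFD+control-FMT, 19.4, 15.2 and 17.6 in HFD+AOS and 16.4, 14.1 and 20.3 in HFD. AOS libraries had 19.2, 14.5 and 20.1, and control libraries 16.7, 16.7 and, in replicate 3, 34.3. Without control replicate 3 its group means lay between 16.7 and 19.1, and no neighbouring groups separated. Its F test over the 6 groups gave an adjusted p of 0.886 in 17 libraries and 0.803 in 18 libraries (limma).

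Cdkn1a, the cell cycle inhibitor, was lower in HFD+AOS and in HFD+AOS-FMT than in HFD. These differences were called when control replicate 3 was left out. The gene lies at chr17:29090976-29100727 on the plus strand of GRCm38. It was at 2.70, 4.78 and 2.81 in HFD+AOS-FMT, 6.70, 5.32 and 3.51 in HFD+control-FMT, 2.88, 2.24 and 2.76 in HFD+AOS and 9.97, 7.37 and 8.62 in HFD. AOS libraries had 5.20, 3.73 and 4.62, and control libraries 14.9, 7.11 and, in replicate 3, 82.6. All values of HFD+AOS-FMT, of HFD+control-FMT and of HFD+AOS were below all HFD values, and all AOS values were below all control values. Such separation from HFD was seen in 25.3%, 15.5% and 28.4% of genes in that order, and that of AOS from control in 13.2% (26.2% without control replicate 3). In the order of group means, 2.63 in HFD+AOS, 3.43 in HFD+AOS-FMT, 4.52 in AOS, 5.18 in HFD+control-FMT, 8.65 in HFD and 11.02 in control (n = 2), HFD+control-FMT and HFD were the neighbours whose ranges did not overlap.

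In 17 libraries Cdkn1a was lower in HFD+AOS than in HFD, with a log2 difference of -1.41 ± 0.25 (SE) and an adjusted p of 0.00701 (limma), where 2.55% of genes were called lower. Leaving out any of these 17 libraries kept this call. Cdkn1a was lower in HFD+AOS-FMT than in HFD, with a log2 difference of -1.15 ± 0.25 and an adjusted p of 0.0236 (limma), where 1.48% of genes were called lower. That call was lost without HFD replicate 1 or 3 or HFD+AOS-FMT replicate 1 or 3 (adjusted p from 0.0572 to 0.0921). In 18 libraries the same differences had adjusted p of 0.245 and 0.398 in limma, with SEs of 0.56. The sizes are the same there, and control replicate 3 enters through the spread shared by the 6 groups.

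HFD+control-FMT lay between HFD+AOS-FMT and HFD in its mean. Its difference from HFD was -0.67 ± 0.25 in 17 libraries (limma, adjusted p = 0.445, with an SE of 0.56 in 18 libraries), and HFD+AOS-FMT was -0.48 ± 0.25 from HFD+control-FMT (adjusted p = 0.418, limma), with a 95% interval of -1.02 to 0.06. A difference between the transplants was therefore not called. Over the 6 groups the F test of Cdkn1a had an adjusted p of 0.0121 in 17 libraries, where 6.36% of genes passed, and 0.113 in 18 libraries (limma).

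Against the control group Cdkn1a was lower in HFD+AOS-FMT in both fits. The log2 difference was -2.35 ± 0.56 in 18 libraries (limma, adjusted p = 0.0439), where 1.33% of genes were called lower, and -1.39 ± 0.28 in 17 libraries (adjusted p = 0.0154), where 1.72% were. The first call was lost on leaving out any library other than control replicates 2 and 3 (adjusted p from 0.0518 to 0.138). The second was lost without HFD+AOS-FMT replicate 3 or control replicate 1 (adjusted p of 0.0541 and 0.189), and the difference was -0.90 without control replicate 1. AOS without the diet differed from control by -2.01 ± 0.56 in 18 libraries (adjusted p = 0.313) and -1.05 ± 0.28 in 17 (adjusted p = 0.279, limma), and it passed in 18 libraries without control replicate 2 alone (adjusted p = 0.0453). All 3 HFD+AOS-FMT values were below every control value, as in 16.0% of genes for either direction (33.5% without control replicate 3). The AOS difference under the diet minus that without it was -0.36 ± 0.38 in 17 libraries (adjusted p = 0.787, limma) and 0.60 ± 0.79 in 18 libraries (adjusted p = 0.732), so its direction depends on control replicate 3.

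**Figure D4:**
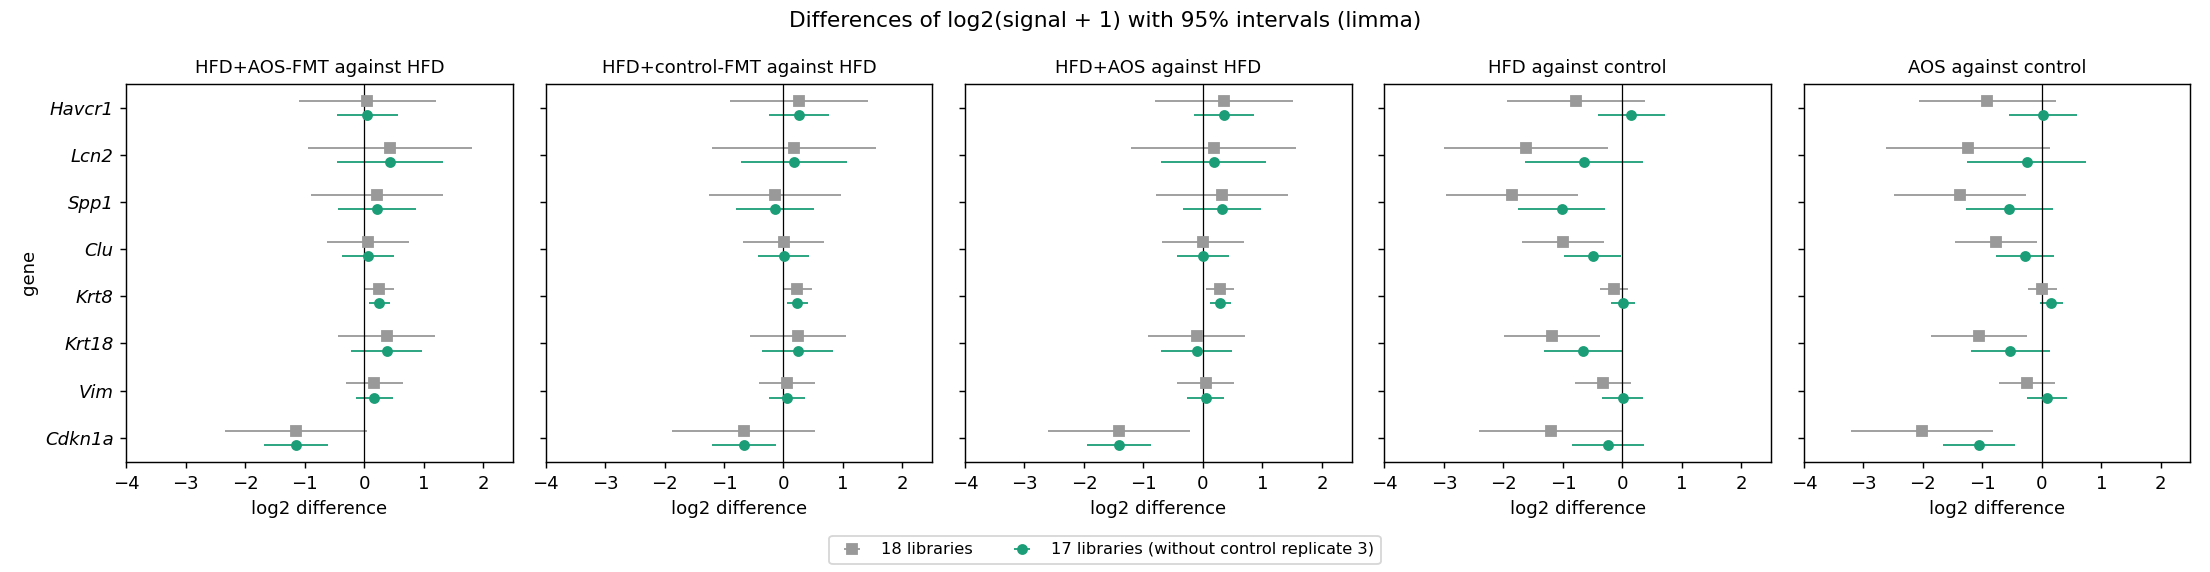
Differences of log2(signal + 1) for the 8 tested markers in 5 comparisons, with 95% intervals from limma. Squares are the fit of all 18 libraries and circles the fit without control replicate 3. Cdkn1a lies left of 0 in all 5 panels, and in the fit of 17 libraries its interval spans 0 only in HFD against control.

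Clock genes moved with Cdkn1a. The 3 genes most like it over the 17 libraries were Ypel2 (r = 0.92), the lactate transporter Slc16a1 (r = 0.90) and Clock (r = 0.90), which encodes a core transcription factor of the circadian clock. The most opposite genes, looked at after the values were seen, were Dbp (r = -0.93), Tef (r = -0.91) and Nr1d2 (r = -0.91), which encode clock output factors and a nuclear receptor of the clock. Dbp was at 97.8, 68.4 and 63.8 in HFD+AOS-FMT, 10.4, 13.1 and 43.7 in HFD+control-FMT and 69.7, 72.3 and 92.9 in HFD+AOS, against 3.26, 10.2 and 3.36 in HFD. Dbp was at 26.0, 36.5 and 11.5 in AOS, against 2.76, 6.90 and, in replicate 3, 90.6 in control.

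In 17 libraries Dbp was higher in HFD+AOS-FMT than in HFD by 3.69 ± 0.57 and in HFD+AOS than in HFD by 3.73 ± 0.57 on the log2 scale (limma, adjusted p of 0.00646 and 0.00474), the comparisons in which Cdkn1a fell. In 18 libraries neither passed (adjusted p of 0.101 and 0.0641, limma). Within HFD+control-FMT, replicate 3 had the highest Dbp and the lowest Cdkn1a. Control replicate 3 was off the pattern, with Dbp at 90.6, Clock at 5.88 and Cdkn1a at 82.6. The part of clock phase or collection time in the Cdkn1a difference was not tested.

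**Figure D5:**
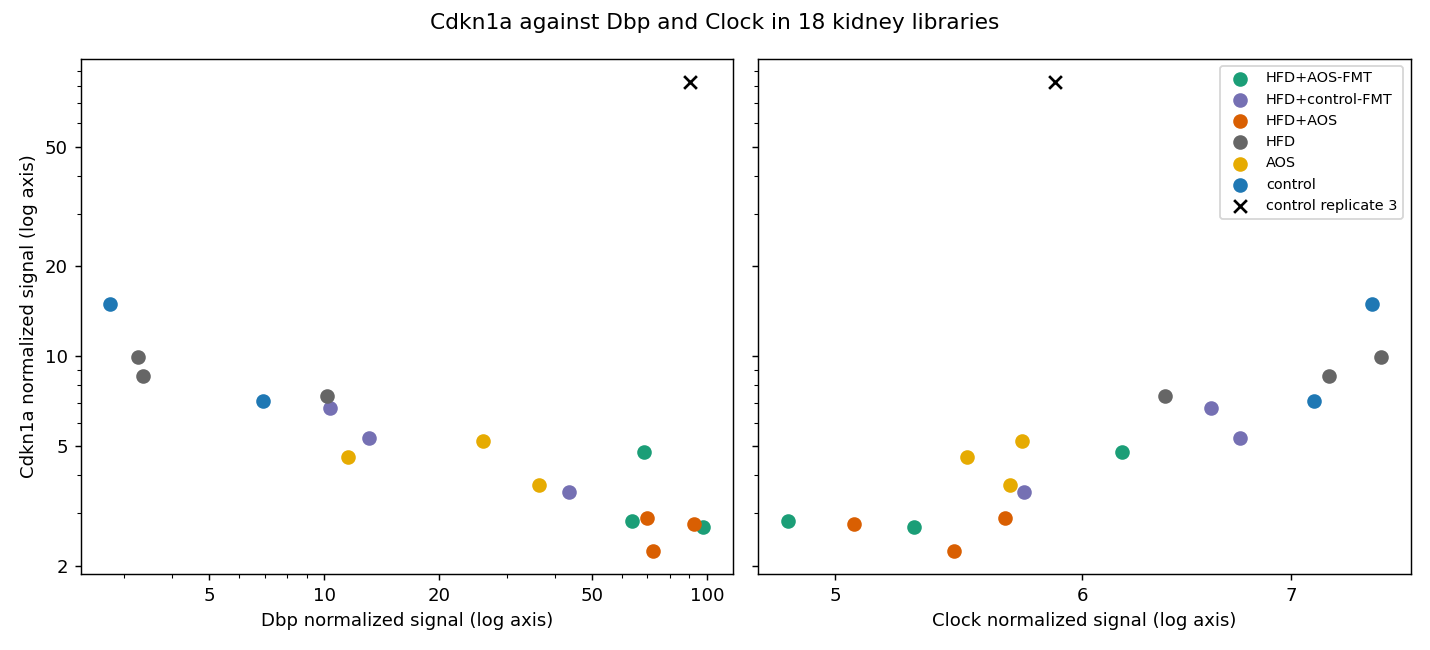
Cdkn1a against Dbp (left) and against Clock (right), normalized signal on log axes, 1 point per library and 1 colour per group. Among the other 17 libraries Cdkn1a is lower where Dbp is higher and Clock lower, with control replicate 3 (cross, Cdkn1a at 82.6) far above the other libraries.

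The sperm chromatin split also moved with these groups, since those transcripts were present in 2 of the 3 HFD libraries and in no HFD+AOS, HFD+AOS-FMT or HFD+control-FMT library above a sum of 0.3. Cdkn1a was at 9.97 and 7.37 in the 2 HFD libraries with those transcripts. It was at 8.62 in HFD replicate 3, in which they are listed at 0. With the split as a term in 17 libraries the Cdkn1a difference was -1.41 for HFD+AOS (limma, adjusted p = 0.0899) and -1.15 for HFD+AOS-FMT (adjusted p = 0.216), both against HFD. The sizes barely moved and the calls were lost. Only 1 HFD library is without those transcripts, so the split and the groups cannot be told apart in the Cdkn1a difference.

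Sox9, the repair factor, and Cd44 were near the floor of the table and are given as levels only. Sox9 was at 0.21, 0.12 and 0.24 in HFD+AOS-FMT, 0.14, 0.24 and 0.07 in HFD+control-FMT, 0.20, 0.07 and 0.07 in HFD+AOS, 0.10, 0.17 and 0.12 in HFD, 0.17, 0.13 and 0.10 in AOS and 0.11, 0.07 and, in replicate 3, 0.25 in control. No group separated from its neighbour in the order of means. Cd44 was at 0.89, 0.57 and 0.52 in HFD+AOS-FMT, 0.67, 0.46 and 0.71 in HFD+control-FMT, 1.3, 0.61 and 0.52 in HFD+AOS, 0.49, 0.58 and 0.68 in HFD, 0.48, 0.35 and 0.54 in AOS and 0.66, 0.59 and, in replicate 3, 2.61 in control.

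The genes most like Cd44 over the 17 libraries were Cd14 (r = 0.85), a co-receptor for bacterial lipopolysaccharide, Havcr1 (r = 0.78) and Ubd (r = 0.77), a ubiquitin-like modifier. In HFD+AOS replicate 1 Cd14 was at 13.3, the highest of the 17, beside Havcr1 at 6.23. The myeloid list summed to 93.7 there, inside its range of 66.7 to 128 over the 17 libraries.

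No marker was called in HFD against control. There, 0 of the 8 tested members passed in either fit by limma, and 0% of all genes did. With 18 libraries all 8 differences were negative with a median of -1.08, against -0.10 over all tested genes, and 5 of the 8 had an unadjusted p under 0.05, where 17.4% of genes did. Without control replicate 3 the median was -0.37, against -0.02 over all genes. Then 2 of the 8 had an unadjusted p under 0.05 (Spp1 and Clu), where 6.84% of genes did. The log2 difference of Havcr1 was -0.78 in 18 libraries (95% interval -1.93 to 0.38) and 0.15 in 17 libraries (-0.41 to 0.72), so its direction depends on control replicate 3. That of Lcn2 was -1.63 in 18 libraries (-3.01 to -0.25) and -0.65 in 17 libraries (-1.65 to 0.35).

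Over the remaining comparisons in 17 libraries, 2 of the 8 members were called in HFD+AOS against HFD (Cdkn1a and Krt8), where 6.85% of genes were, and 1 each in HFD+AOS-FMT against HFD, where 4.89% were, and HFD+AOS-FMT against control, where 4.36% were. None were called in HFD+control-FMT against HFD or AOS against control, where 0% of genes were called, or in HFD+AOS-FMT against HFD+control-FMT, where 0.117% were. Of the 8 members 2, 1 and 0 had an unadjusted p under 0.05 in those 3 comparisons, where 8.69%, 8.71% and 13.9% of genes did. In 18 libraries 1 member was called in 1 comparison, Cdkn1a in HFD+AOS-FMT against control, where 2.32% of genes were called. None were called in HFD+AOS-FMT against HFD (0.175% of genes), HFD+AOS against HFD (0.823%), AOS against control (0.0333%) or the F test (1.02%). Of the 8, 1 had an unadjusted p under 0.05 in HFD+AOS-FMT against HFD (13.3% of genes), 2 in HFD+AOS against HFD (15.1%), 4 in AOS against control (12.7%) and 4 in the F test (17.7%). In HFD+control-FMT against HFD and HFD+AOS-FMT against HFD+control-FMT 0 of the 8 did, where 4.50% and 7.02% of genes did. For the AOS difference under the diet minus that without it, 1 of the 8 did in 18 libraries (12.4%) and 0 in 17 libraries (9.78%), and 0% of genes were called.

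Beyond the 10 members, the injury and p53 lists had 1 called gene at most in each comparison. In HFD+AOS-FMT against HFD (17 libraries), 0 of 21 tested injury genes were higher and 1 was lower, where 4.89% of all genes were called, and the median difference was -0.04, against 0.05 over all genes. That gene was Itgb6, an integrin chain that activates latent TGF-beta, at 16.1, 19.4 and 11.7 in HFD+AOS-FMT against 26.2, 23.8 and 21.1 in HFD (log2 difference -0.58, limma, adjusted p = 0.0371). In HFD+AOS against HFD 0 of the 21 passed (4 at an unadjusted p under 0.05, limma), where 6.85% of all genes did, with a median of -0.12 against 0.01 over all genes.

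Of 15 tested p53 and cell cycle arrest genes 1 was lower in each of these comparisons, where 1.48% and 2.55% of all genes were called lower, and it was Bax in both. Bax was at 38.7, 33.5 and 39.1 in HFD+AOS-FMT and 39.9, 40.8 and 37.4 in HFD+AOS, against 48.6, 47.4 and 45.9 in HFD. The differences were -0.35 (adjusted p = 0.0135) for HFD+AOS-FMT and -0.26 (adjusted p = 0.0400) for HFD+AOS in limma. In 18 libraries neither Itgb6 nor Bax passed in these comparisons. The medians of the 15 genes were 0.05 and -0.04, against 0.05 and 0.01 over all genes. In HFD+AOS-FMT against control, C3 (-2.01) and Aen (-0.74) were lower in 18 libraries (limma, adjusted p of 0.0499 and 0.0261), and Itgb6 (-0.89) and Aen (-0.51) in 17 libraries (adjusted p of 0.00859 and 0.0205).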

How the data were processed

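RNA of 18 kidney libraries was measured by sequencing. Per the labels' protocols, frozen kidney was extracted with Trizol and a column kit. Per the submitters' processing notes, Bowtie 0.12.2 and mm10 were used. How reads were counted and scaled is not given in the sources used here. A single table, deposited by the authors, holds their normalized signal per gene symbol, with 2 decimals and no stated unit. Its column sums varied by 3.50% (CV), and by 0.815% once multiplied by transcript length. Read totals are unknown, which leaves counting error without an interval. Relative depth comes from single-read steps of 43 genes, of which each library used 12 to 25, and is relative to the median library of each gene. Of 19545 entries, 26 date-like symbols and 1 repeat were left out.

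Genes with a signal of at least 1 in 3 libraries (12030, or 11958 of the 17 libraries) were fitted as log2(value + 1) on 6 groups by limma 3.58.1 under R 4.3.3, with its trend and robust options on. A log2 difference is on that scale and understates changes of low genes. Tests were two-sided with Benjamini-Hochberg adjustment over all genes at 0.05. The plan named this test for normalized values, and the fit was tested on simulated data. The intervals and SEs are limma's. The members and gene lists were chosen with earlier results of these data known. The rule for names took all members, list genes that passed in a contrast or, where none did, had the 2 smallest F test p-values, and the 3 genes with the highest correlation to each member. For the F test the genes of the 17-library fit are printed. One gene named by this rule is not reported here.

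Promoters are from RefSeq (GRCm38.p6), in which 8 members matched. Where a gene has several starts, a start at a principal transcript was used. For Cdkn1a and Spp1 a further start also lies at a principal transcript. There the start that comes first along the chromosome was used, which for Spp1 lies 7 bases from a principal start. Settings tried were a pseudocount of 0.1, no filter, quantile normalization, no trend or robust estimation, the groups of a contrast alone, a replicate block, a term for sperm chromatin transcripts, and each library left out.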

Additional observations from a re-analysis of the deposited data

How the results depend on the processing

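Counts are of called members among 8. The alternatives for 17 libraries were chosen after seeing the data. In 18 libraries, fitting the groups of a contrast alone gave 1 in HFD+AOS-FMT against HFD and 2 in HFD+AOS against HFD, each 0 as reported. HFD+AOS-FMT against control, 1 as reported, gave 0 with the groups alone, with the replicate block and with the sperm transcript term. In 17 libraries, HFD+AOS-FMT against HFD, 1 as reported, gave 0 with no filter and with the sperm transcript term. HFD+AOS against HFD, 2 as reported, gave 1 with no filter, 1 with no trend or robust estimation, 1 with the replicate block and 0 with the sperm transcript term. HFD+AOS-FMT against control gave 0 with the groups alone and with the sperm transcript term, and the F test gave 0 with that term. The cause was not tested.

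Leaving out each library of 18 in turn gave 0 to 1 called members in HFD against control, HFD+AOS-FMT against HFD and AOS against control, 0 to 2 in HFD+AOS against HFD, HFD+AOS-FMT against control and the F test, and 0 to 0 in the other 3. Clu in HFD against control passed without control replicate 2 (-1.45, limma, adjusted p = 0.0199). Without control replicate 2, Clu in HFD+AOS-FMT against control passed (-1.39, adjusted p = 0.00933), and without control replicate 1 Spp1 did (-2.30, adjusted p = 0.0276). In 17 libraries the ranges were 1 to 2 in HFD+AOS against HFD and in the F test, 0 to 1 in HFD+AOS-FMT against HFD and against control, and 0 to 0 in the other 5. No called value changed sign in any setting run. Same-numbered replicates did not deviate together more than others: 5 of 45 such pairs correlated above 0.1, against 16 of 90 pairs with different numbers. Closest to their own number were 5 of 18 libraries, so no pairing by number was seen. With the replicate block the result for Cdkn1a, HFD+AOS-FMT against control, had an adjusted p of 0.0591 in 18 libraries (limma). The planned sperm transcript rule, a list sum over 10 times the median, found 0 libraries and could not be fitted, and a sum over 1 of 4 genes replaced it. Over all genes the counts of calls moved more than those of the members. As reported in 17 libraries, HFD+AOS-FMT against HFD had 585 (28 to 591 in other settings, 150 to 569 with 1 library left out), HFD+AOS against HFD 819 (140 to 834, 326 to 890), HFD+AOS-FMT against control 521 (11 to 704, 41 to 509) and the F test 761 (130 to 822, 454 to 677). In 18 libraries these were 21 (1 to 166, 0 to 585), 99 (7 to 314, 10 to 819), 279 (1 to 492, 61 to 784) and 123 (0 to 270, 46 to 761). Sox9 and Cd44 had signals too low for the minimum.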

Other observations

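Some other nephron genes passed in the comparisons in which Cdkn1a fell. Of all genes 4.89% were called in HFD+AOS-FMT against HFD and 6.85% in HFD+AOS against HFD. In the first, 2 of 6 podocyte, 1 of 7 loop and distal tubule, 1 of 8 collecting duct and 1 of 10 proximal tubule genes were called. In HFD+AOS-FMT against HFD (17 libraries, limma), the podocyte genes Nphs1 (0.84, adjusted p = 0.0236) and Ptpro (0.58, adjusted p = 0.00517), the distal tubule growth factor Egf (0.61, adjusted p = 0.0119), the collecting duct water channel Aqp3 (0.47, adjusted p = 0.0324) and the proximal tubule transporter Slc7a13 (0.30, adjusted p = 0.0283) rose on the log2 scale. In HFD+AOS against HFD, Aqp3 (0.45, adjusted p = 0.0310), 1 of 8 collecting duct genes, and Ptpro (0.48, adjusted p = 0.0105), 1 of 6 podocyte genes, rose. The germ cell genes Oaz3 (-1.14 in both, adjusted p of 0.0338 and 0.0277) and, in HFD+AOS, Smcp (-0.93, adjusted p = 0.00319) were lower. In 18 libraries none of these genes passed in either comparison. In HFD+AOS-FMT against control 6 of 8 tested germ cell genes were called lower in both fits. Of all genes 1.33% were called lower in 18 libraries and 1.72% in 17 libraries. Among the 6, Prm1, Prm2, Tnp1 and Tnp2 are the genes that defined the sperm chromatin split. They passed the minimum through the libraries in which they are high, so their difference restates that split. The others were Oaz3 and Ldhc, with Ldhc at -1.34 in 18 libraries (limma, adjusted p = 0.00880) and -1.22 in 17 libraries (adjusted p = 0.0106).

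In 6 lists no gene passed in a contrast, and their smallest F test p-values in 17 libraries did not pass after adjustment over all genes (limma). These adjusted p-values were 0.672 for Upk3a and 0.763 for Upk2 (urothelium), 0.115 for Acta2 and 0.258 for Col1a1 (endothelium and stroma), and 0.200 for C1qb and 0.234 for S100a8 (myeloid). They were 0.0799 for Cd8a and 0.157 for Cd79b (lymphoid), 0.384 for Ucp1 and 0.518 for Fabp4 (fat), and 0.485 for Star, the adrenal gene that passed the minimum.

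The genes most like the remaining members over the 17 libraries were Cdkl1 (r = 0.89), Ist1 (r = 0.84) and Syngr1 (r = 0.82) for Spp1, and Shisa4, Tnfsf13b and Creb3 (r = 0.83, 0.83 and 0.82) for Clu. For Vim they were Fam129a (r = 0.81), Gypc (r = 0.78) and Ccnd2 (r = 0.75), and for Sox9 Flt3l (r = 0.77), Crtc1 (r = 0.74) and Cldn7 (r = 0.73).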
